A study of Mus musculus with 12 samples.

Results

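Macrophages are the main immune cells of the early embryo, and 32 genes that mark them were followed through RNA-seq of the mesenchyme that forms the palate and upper jaw. The 32 genes were a fixed list of symbols, found by their Ensembl identifiers among the 53392 genes of the deposited tables, and all 32 were present. The mice were of the 129S4 background and fell into 4 groups of 3 libraries. Palatal shelves at embryonic stage E13.5 came from wild-type embryos (Pdgfra+/+) and from embryos homozygous for a PI3K allele of Pdgfra (PdgfraPI3K/PI3K), a change in the receptor for platelet-derived growth factor that keeps it from binding PI3 kinase. Maxillary processes at stage E11.5 came from embryos with both copies of the splicing factor gene Srsf3 floxed, either without the Wnt1-Cre transgene (Srsf3fl/fl;Wnt1-Cre+/+, the controls, which therefore also carry the floxed alleles) or with 1 copy of it (Srsf3fl/fl;Wnt1-Cre+/Tg, labelled cKO). The PI3K allele is present in every cell of its embryos, whereas Wnt1-Cre acts in the neural crest lineage. Trypsin was used to strip the ectoderm and no cell sort is described, so the pieces could hold vessels, blood and macrophages beside mesenchyme. The labels call the 3 libraries of each group biological replicates.

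Embryonic macrophages arise from blood-forming cells of the yolk sac and fetal liver and not from neural crest, which gives rise to the mesenchyme of the face. They depend on CSF1R, the receptor for the growth factors CSF1 and IL-34, and on PU.1, the transcription factor encoded by Spi1. They clear dying cells, and they carry complement C1q, Fc receptors and scavenger receptors for this work. Several of the listed genes are also made by other cells of the tissue: Apoe in many cell types, Stab1 and Lyve1 in endothelium, Pf4 and F13a1 in megakaryocytes, and Coro1a and Ctss outside macrophages.

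PU.1 binds DNA around a core that is often written GAGGAA, and many macrophage promoters are controlled by it. A 7-base form of that core, GAGGAAG, was searched on both strands in RefSeq promoter windows of GRCm38.p6, each from 250 bases before to 50 after a gene's start. Windows were at hand for 24 of the 32 genes, and 11 of these 24 (45.8%) held it, against 15.4% of the 27025 genes with a window. By window, 13 of the 30 windows of these genes held it, against 13.6% of all 32851 windows. The 8 genes without a window were Csf1r, Spi1, C1qa, Tyrobp, Itgb2, Adgre1, Cd14 and Lyve1. It was 1 of 6 strings searched. Of the other strings, which overlap it except for the last 2, GAGGAA was in 21 of the 30 member windows and 28.3% of all windows, GAGGAAGT in 5 and 3.2%, AGGAAGT in 11 and 9.35%, CAGGAA in 17 and 30.6%, and the unrelated TGACGTCA in 0 and 1.79%. A match describes these letters and does not show that PU.1 was bound.

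Matches from 4 genes that passed the test between the palatal shelf and the maxillary process are given here, 3 of them higher in the palatal shelf (Mrc1, F13a1 and C1qc) and 1 lower (Pf4). Each is read 5′ to 3′ on the gene's own strand, with the core or its reverse complement in capitals. The Mrc1 stretch is chr2:14229226-14229272 (plus strand), the F13a1 stretch chr13:37050284-37050330 (minus), the C1qc stretch chr4:136893082-136893128 (minus) and the Pf4 stretch chr5:90772406-90772434 (plus). All 4 lie upstream of the annotated gene.
Mrc1: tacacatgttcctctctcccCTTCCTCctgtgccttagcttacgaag
F13a1: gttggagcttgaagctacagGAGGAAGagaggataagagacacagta
C1qc: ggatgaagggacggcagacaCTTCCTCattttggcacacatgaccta
Pf4: gtcattgcttctgcagagcaCTTCCTCat
The core was on the gene's own strand in F13a1, and its reverse complement was there in Mrc1, C1qc and Pf4. Genes with the core thus included members that were higher and one that was lower in the older tissue.

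Libraries held 30509338 to 37406960 estimated counts in the palatal shelf and 15932541 to 27887654 in the maxillary process. Mesenchymal markers were high throughout, with the 10 listed summing to between 2397 and 7517 TPM (a level corrected for transcript length). Markers of the neural crest mesenchyme of the upper face (12 listed) summed to 516 to 1442 TPM. Ectodermal markers (9 listed) summed to 649 to 839 TPM in wild-type palatal shelves and 348 to 866 in PI3K palatal shelves, but to 1.66 to 15.0 TPM in the maxillary libraries. Lymphocyte markers (10 listed) stayed at or under 2.03 TPM in sum in every library. In CPM, read counts scaled to the size of each library, total Srsf3 was not lower with Wnt1-Cre: the control libraries had 621, 595 and 562 CPM, the cKO-labelled ones 478, 694 and 640 CPM, and the log2 fold change was 0.03 (SE 0.14) with an adjusted p of 0.954 in edgeR's quasi-likelihood test. A gene total does not show whether the floxed part was lost, so these 3 are called the libraries labelled cKO. One of them, library 1, also stood apart in several marker sums.

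The macrophage genes were expressed at low levels, with Apoe first and Cd163 last in every group. Means ± SD (n = 3 libraries) are given in TPM in the order wild-type palatal shelf, PI3K palatal shelf, control maxillary process and maxillary process labelled cKO. Apoe, a lipid carrier, led in every group with 61.9 ± 18.9, 91.8 ± 7.71, 45.3 ± 5.03 and 90.8 ± 62.8 TPM. Behind it in the palatal shelf came Stab1, a scavenger receptor that takes up modified proteins, with 17.6 ± 6.03, 17.5 ± 1.34, 9.59 ± 1.2 and 20.0 ± 14.7 TPM, and in the control maxillary process Pf4, the chemokine platelet factor 4, with 9.09 ± 5.05, 8.46 ± 2.79, 22.7 ± 2.44 and 16.8 ± 4.34 TPM. Cd163, the scavenger receptor for haemoglobin bound to haptoglobin, was lowest in each group, with 0.0482 ± 0.0377, 0.0497 ± 0.0326 and 0.0146 ± 0.0253 TPM in the first 3 groups, and was listed at 0 in all libraries labelled cKO. Its counts were too few for a test in any comparison.

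**Figure D1:**
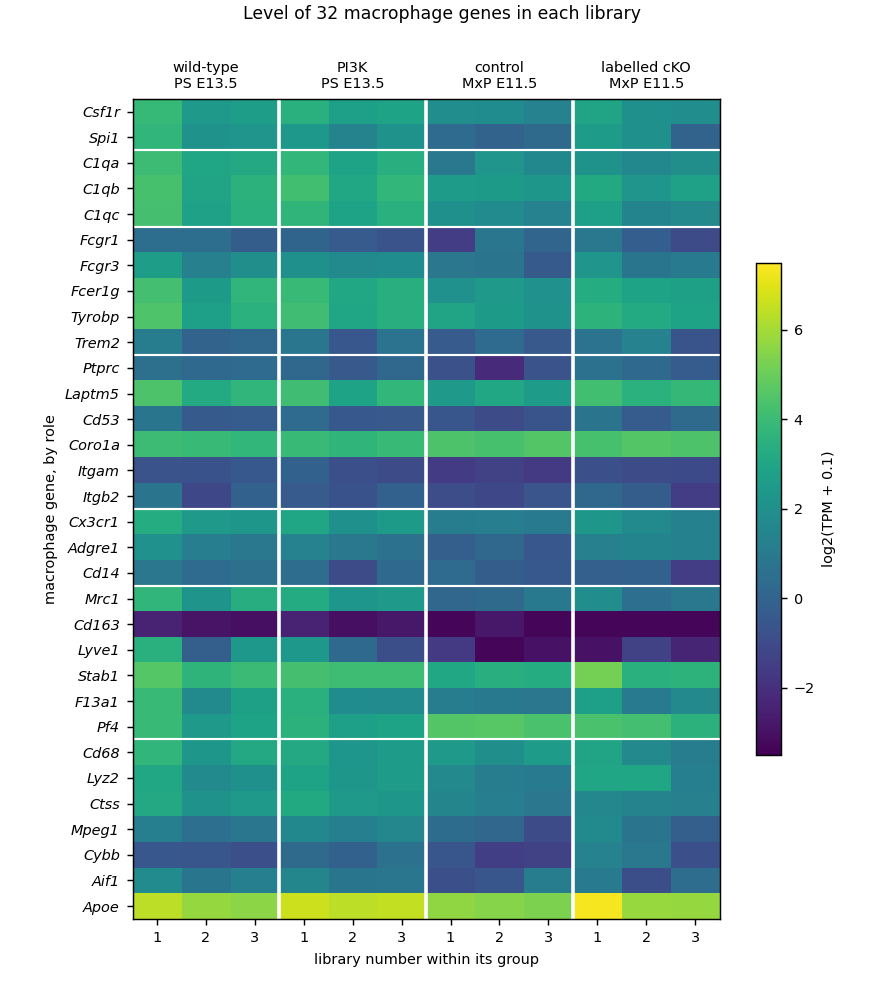
Level of the 32 macrophage genes (rows, grouped by role) in each of the 12 libraries (columns), as colour on a log2(TPM + 0.1) scale. Apoe is the brightest row, Cd163 the darkest, and the first library of each palatal group is brighter than the other 2 for most genes.

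Among the regulators, the receptor gene Csf1r averaged 8.66 ± 5.20, 8.29 ± 2.56, 3.22 ± 0.611 and 5.05 ± 2.16 TPM, and Spi1 averaged 7.33 ± 4.98, 3.95 ± 1.24, 1.07 ± 0.141 and 3.57 ± 2.5 TPM. The 3 chains of C1q, the protein that starts the classical complement pathway, were as abundant as Csf1r or somewhat more so in the palatal shelf. C1qa averaged 11.0 ± 4.83, 10.4 ± 3.16, 3.13 ± 1.39 and 3.63 ± 0.579 TPM, C1qb 13 ± 6.22, 13.4 ± 4.81, 5.36 ± 0.412 and 6.74 ± 2.18 TPM, and C1qc 12.4 ± 6.20, 10.4 ± 2.79, 3.27 ± 0.760 and 4.06 ± 2.09 TPM. All 5 genes were higher in both palatal groups than in both maxillary groups by their means.

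The Fc receptors were lower than their signalling adaptors. Fcgr1, the high-affinity receptor for immunoglobulin G, averaged 1.11 ± 0.322, 0.708 ± 0.201, 0.954 ± 0.706 and 0.975 ± 0.702 TPM, and Fcgr3, a low-affinity one, 4.09 ± 1.95, 3.56 ± 0.389, 1.32 ± 0.567 and 2.71 ± 1.67 TPM. Fcer1g, the gamma chain through which Fc receptors signal, averaged 12.5 ± 6.57, 11.2 ± 3.41, 4.53 ± 0.760 and 7.89 ± 1.67 TPM. The other adaptor, Tyrobp (DAP12), was near it, and its lipid-sensing partner receptor Trem2 was far lower. Tyrobp averaged 13.3 ± 8.10, 11.9 ± 4.95, 5.78 ± 1.53 and 9.45 ± 2.40 TPM and Trem2 1.35 ± 0.682, 1.27 ± 0.591, 0.833 ± 0.291 and 1.53 ± 0.993 TPM.

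Of the genes of the leukocyte surface and cytoskeleton, Coro1a, an actin-binding protein, and Laptm5, a lysosomal membrane protein of blood cells, were the most abundant. Coro1a averaged 15.0 ± 1.45, 14.4 ± 1.48, 21.5 ± 1.92 and 21.6 ± 1.95 TPM and Laptm5 14.6 ± 6.32, 12.7 ± 4.97, 6.43 ± 1.71 and 14.5 ± 3.26 TPM. The pan-leukocyte phosphatase CD45, encoded by Ptprc, averaged 1.22 ± 0.139, 0.921 ± 0.238, 0.378 ± 0.220 and 1.07 ± 0.346 TPM, and the tetraspanin gene Cd53 0.994 ± 0.515, 0.812 ± 0.309, 0.517 ± 0.0850 and 1.14 ± 0.436 TPM. Itgam and Itgb2 encode the 2 chains of the integrin complement receptor 3 and were both low. Itgam averaged 0.550 ± 0.0680, 0.576 ± 0.229, 0.253 ± 0.0308 and 0.428 ± 0.0405 TPM and Itgb2 0.921 ± 0.606, 0.678 ± 0.173, 0.450 ± 0.0956 and 0.665 ± 0.384 TPM. Counts of Itgam are uncertain, since 68.1% of its 31-base stretches also occur in another gene model, mostly Gm49368. The same share was 32.8% for Lyz2, shared with Lyz1, and 13.4% for Fcgr3, shared with Fcgr2b.

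The chemokine receptor gene Cx3cr1, whose ligand is fractalkine, averaged 6.63 ± 2.7, 5.83 ± 1.96, 2.09 ± 0.139 and 3.53 ± 1.23 TPM. Adgre1, the gene of the classic mouse macrophage antigen recognised by the antibody F4/80, averaged 2.71 ± 1.26, 1.92 ± 0.530, 0.802 ± 0.206 and 2.46 ± 0.163 TPM, and Cd14, the co-receptor for lipopolysaccharide, 1.44 ± 0.288, 0.917 ± 0.433, 0.841 ± 0.284 and 0.640 ± 0.333 TPM. Among the products of resident tissue macrophages, the mannose receptor gene Mrc1 averaged 9.28 ± 4.47, 6.53 ± 2.65, 1.31 ± 0.445 and 2.22 ± 1.21 TPM. F13a1, the catalytic subunit of the clotting factor that cross-links fibrin, averaged 8.35 ± 6.17, 6.0 ± 4.49, 1.90 ± 0.225 and 3.86 ± 2.31 TPM. Lyve1, a hyaluronan receptor, averaged 5.61 ± 5.10, 2.20 ± 2.49, 0.0832 ± 0.120 and 0.139 ± 0.135 TPM. Lyve1 and Mrc1 were thus much lower in both maxillary groups than in the palatal shelf.

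The remaining effectors sat in lysosomes, phagosomes or the cytoplasm. Cd68, a lysosomal glycoprotein, averaged 9.0 ± 4.16, 6.37 ± 2.01, 4.92 ± 1.01 and 4.22 ± 2.84 TPM. Lyz2, the macrophage lysozyme, averaged 5.21 ± 2.77, 6.01 ± 1.16, 2.39 ± 0.658 and 5.94 ± 3.17 TPM, and Ctss, the protease cathepsin S, 6.07 ± 2.27, 6.41 ± 2.29, 2.23 ± 0.513 and 2.61 ± 0.266 TPM. Mpeg1 encodes a pore-forming protein of the phagosome, Cybb a subunit of the NADPH oxidase, and Aif1 the calcium-binding protein IBA1. Mpeg1 averaged 1.74 ± 0.484, 2.72 ± 0.390, 0.875 ± 0.401 and 1.85 ± 1.2 TPM, Cybb 0.544 ± 0.0683, 1.14 ± 0.298, 0.379 ± 0.181 and 1.58 ± 1.03 TPM, and Aif1 2.44 ± 0.936, 2.06 ± 0.695, 1.06 ± 0.925 and 1.21 ± 0.734 TPM.

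Outside the controls, most members were highest in the same library of their group. In wild-type palatal shelves, library 1 was the highest of the 3 for 31 of the 32 members in CPM, and library 2 the lowest for 26. In PI3K palatal shelves, library 1 was again the highest for 31 of 32, and library 2 the lowest for 24. Among the libraries labelled cKO, library 1 was the highest for 26 of the 31 members above 0, and library 3 the lowest for 20. The 3 controls showed no such order, with 15, 10 and 7 members highest in libraries 1, 2 and 3. The share of all genes highest in each library was not counted. The median member stood at 10.3, 3.80 and 5.04 TPM in wild-type palatal shelves, 7.56, 3.74 and 4.61 TPM in PI3K palatal shelves, 1.76, 1.74 and 1.78 TPM in controls, and 4.41, 2.62 and 2.21 TPM in the libraries labelled cKO. Libraries of 1 group therefore differed by more than 2-fold in the palatal shelf and hardly at all in the controls. Palatal library 1 also stood apart in other marker sums, in libraries 1, 2 and 3 in turn. Mesenchymal markers summed to 7517, 4413 and 5601 TPM in wild type and 6750, 5305 and 4873 TPM with the PI3K allele, and skeletal muscle markers (8 listed) to 59.6, 4.70 and 9.10 TPM and 237, 39.2 and 137 TPM. Markers of neural crest mesenchyme were lowest there, at 938, 1343 and 1121 TPM and 1005, 1442 and 1394 TPM. Their part in the macrophage values was not tested. In bulk tissue, fewer macrophages and less macrophage RNA per cell cannot be told apart.

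**Figure D2:**
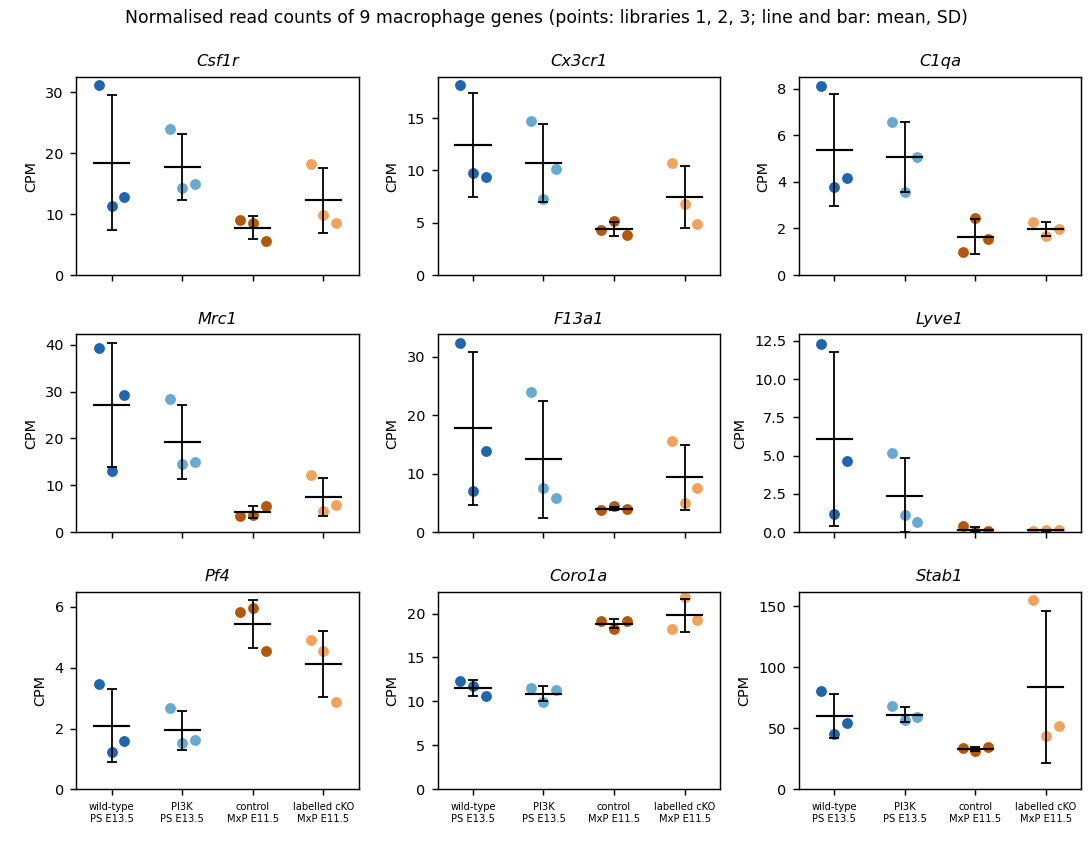
CPM of 9 macrophage genes by group, with 1 dot per library, the group mean as a line and its SD as a bar that is not drawn below 0. The wild-type palatal shelf stands above the control maxillary process for 7 of the genes and below it for Pf4 and Coro1a, and 1 library lies well above the others in the palatal groups for most genes.

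The wild-type palatal shelf was compared with the control maxillary process first, because it gave the only members past the threshold. Macrophage genes were mostly higher in the palatal shelf: of 31 tested, 17 were higher and 2 lower at an adjusted p under 0.05, and 29 had a log2 fold change above 0. They included the growth factor receptor, PU.1, all 3 C1q chains and the receptors Mrc1, Cx3cr1, Adgre1 and Lyve1, whereas Pf4 and Coro1a fell. Of the 17, Lyve1 and Aif1 passed the filter on low counts through the palatal libraries alone, where they are high, so that a difference was built into their selection. Of all 15752 genes tested, 50.6% passed the same test, 27.1% higher and 23.4% lower, and 52.0% had a log2 fold change above 0. The median log2 fold change was 1.13 over the members and 0.03 over all genes. CPM values in the 2 groups did not overlap for 21 members, 19 of them higher, against 62.1% of all genes, 33.2% higher. The groups differ at once in stage, tissue, floxed background and the sequencing lane in their labels, and these cannot be told apart. All 9 ectodermal markers were also called higher in the palatal shelf, and their part in the result was not tested.

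The mannose receptor gene Mrc1 had the smallest p of the members. It measured 39.2, 13.1 and 29.2 CPM in the palatal shelf libraries and 3.37, 3.76 and 5.69 CPM in the controls, so the groups lay well apart, and its log2 fold change was 2.65 (SE 0.42), with an adjusted p of 0.00193 in edgeR's quasi-likelihood test with Benjamini-Hochberg adjustment. F13a1 measured 32.3, 6.99 and 13.9 CPM against 3.83, 4.42 and 3.89 CPM, a log2 fold change of 2.13 (SE 0.52) and an edgeR adjusted p of 0.0117. Its palatal values varied far more than those of the controls, which were nearly equal, and without palatal library 1 its log2 fold change was 1.38. Lyve1 had the largest fold change of the members, but the controls held only 6, 0 and 1 counts of it. It measured 12.3, 1.21 and 4.67 CPM in the palatal shelf and 0.389, 0 and 0.0463 CPM in controls, with a log2 fold change of 5.46 (SE 1.18) and an edgeR adjusted p of 0.00698. Its fold change depended on single libraries, from 4.42 on the log2 scale without palatal library 1 to 7.63 without control library 1. Stab1 rose less, from 33.9, 31.2 and 34.5 CPM in controls to 80.7, 45.3 and 54.5 CPM, a log2 fold change of 0.85 (SE 0.21) with an edgeR adjusted p of 0.0110, which became 0.0515 without control library 2. Markers of the endothelia that also make Lyve1 and Stab1 were counted beside all genes, of which 50.6% were called, 27.1% higher. Of 10 endothelial markers 5 were called higher, with sums of 334 to 378 TPM against 268 to 285 TPM in controls. Of 5 lymphatic markers 3 were called higher and 1 lower, with sums of 42.0 to 58.0 TPM against 12.3 to 14.5 TPM. Among those called higher, Ccl21a passed the filter on low counts through the palatal libraries alone. The part of these endothelia in the values of Lyve1 and Stab1 was not tested.

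Both genes at the head of the macrophage programme were higher in the palatal shelf. Spi1 measured 7.71, 2.82 and 3.41 CPM against 1.17, 1.07 and 1.25 CPM in controls, a log2 fold change of 1.99 (SE 0.43) and an edgeR adjusted p of 0.00732. Csf1r measured 31.2, 11.3 and 12.8 CPM against 9.08, 8.59 and 5.55 CPM, a log2 fold change of 1.25 (SE 0.42) and an edgeR adjusted p of 0.0385. Neither gene's groups overlapped. The call of Csf1r was lost in 4 of the 6 fits with 1 library left out, with adjusted p up to 0.110: those without control library 1, 2 or 3, and that without palatal library 1, where its log2 fold change was 0.65.

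The C1q chains, whose genes lie on the minus strand of chromosome 4 in GRCm38 (C1qb at 136880129-136886187, C1qc at 136889804-136893065 and C1qa at 136895917-136898803), rose together. C1qa measured 8.12, 3.78 and 4.18 CPM against 0.973, 2.45 and 1.53 CPM in controls, and C1qc 11.2, 4.05 and 6.39 CPM against 2.59, 2.15 and 1.48 CPM. Log2 fold changes were 1.69 (SE 0.43) for C1qa, 1.16 (SE 0.37) for C1qb and 1.80 (SE 0.42) for C1qc, with edgeR adjusted p of 0.0143, 0.0317 and 0.00949. The lowest palatal library exceeded the highest control for all 3. C1qb kept its call in only 1 of the 6 fits with a library left out, that without palatal library 2, whereas C1qa and C1qc kept theirs in all 6.

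The surface receptors Cx3cr1 and Adgre1 were also higher. Cx3cr1 measured 18.2, 9.81 and 9.34 CPM against 4.34, 5.13 and 3.79 CPM in controls, a log2 fold change of 1.49 (SE 0.30) and an edgeR adjusted p of 0.00536. Adgre1 measured 5.95, 2.66 and 3.06 CPM against 1.56, 1.07 and 1.11 CPM, a log2 fold change of 1.64 (SE 0.39) and an edgeR adjusted p of 0.0106. Palatal values exceeded all control values for both. The third receptor of this role, Cd14, did not pass, at 0.64 (SE 0.39) with an edgeR adjusted p of 0.205. The gene model of Cx3cr1 overlaps 9 others in position, while 1.75% of its 31-base stretches also occur in another gene model. Whether reads of the overlapping models entered its count was not tested.

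Of the Fc receptors and adaptors, 2 of 5 passed, Fcgr3 with a log2 fold change of 1.5 (SE 0.51) at an edgeR adjusted p of 0.0402 and Fcer1g with 1.38 (SE 0.47) at one of 0.0408, and the other 3 had log2 fold changes between 0.45 and 1.13. Of the 6 leukocyte genes, 2 rose and 1 fell. These counts by role stand beside 50.6% of all genes called in this comparison, 27.1% higher. Laptm5 measured 22.7, 12.4 and 14.2 CPM against 6.62, 9.19 and 6.71 CPM, a log2 fold change of 1.12 (SE 0.27) and an edgeR adjusted p of 0.0103, with no overlap. Itgam passed at 1.01 (SE 0.35), whereas Ptprc, Cd53 and Itgb2 did not, with log2 fold changes of 1.14, 0.80 and 0.63. Of the 7 effectors, Aif1 and Ctss rose. Aif1 measured 1.29, 0.603 and 0.831 CPM against 0.195, 0.239 and 0.324 CPM, the latter from 3, 4 and 7 counts, a log2 fold change of 1.79 (SE 0.47) and an edgeR adjusted p of 0.0154. In TPM the groups of Aif1 overlapped, at 3.45, 1.60 and 2.27 in the palatal shelf and 0.469, 0.586 and 2.13 in controls. Ctss measured 5.79, 2.88 and 3.5 CPM against 2.08, 1.61 and 1.2 CPM, a log2 fold change of 1.32 (SE 0.36) and an edgeR adjusted p of 0.0188, with no overlap. Whether groups overlap also depended on the scale for Fcgr1, separate in CPM alone, and for Mpeg1, Lyz2, Fcer1g and Cd14, separate in TPM alone. The effectors that did not pass lay between 0.34 (Apoe) and 1.00 (Lyz2).

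Pf4 and Coro1a went the other way. Pf4 measured 3.46, 1.23 and 1.60 CPM in the palatal shelf and 5.84, 5.97 and 4.53 CPM in controls, a log2 fold change of -1.38 (SE 0.40) with an edgeR adjusted p of 0.0238. Coro1a measured 12.4, 11.8 and 10.6 CPM and 19.1, 18.3 and 19.2 CPM, a log2 fold change of -0.71 (SE 0.12) with an edgeR adjusted p of 0.00243. All controls exceeded all palatal libraries for both genes. Pf4 lost its call in 4 of the 6 fits with a library left out (control library 1 or 2, palatal library 2 or 3; adjusted p up to 0.0852), and Coro1a in none. Markers of megakaryocytes and platelets fell with Pf4: all 8 listed were lower at an adjusted p under 0.05, and their summed level was 2.06 to 4.93 TPM in the palatal shelf against 22.7 to 27.6 TPM in controls. Among them, the platelet chemokine gene Ppbp had a log2 fold change of -5.99 and the integrin gene Itga2b one of -2.02. Of these 8 markers, 4 were at 0 counts in palatal library 3, 1 in library 1 and none in the controls. Their part in the fall of Pf4 was not tested.

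The count of called members depended on single libraries. It was 12, 10 and 13 without control library 1, 2 or 3, and 12, 20 and 14 without palatal library 1, 2 or 3. Over all genes, 7965 were called in all 6 libraries, 6765, 6185 and 8473 without control library 1, 2 or 3, and 6254, 7410 and 5877 without palatal library 1, 2 or 3, so that without control library 3 calls rose over all genes and fell among the members. The 10 members called in all 6 of these fits were Mrc1, Cx3cr1, Lyve1, Spi1, C1qa, C1qc, Laptm5, Adgre1, F13a1 and Coro1a, of which Lyve1 passed the filter through the palatal libraries alone. Fcgr3, Fcer1g, Itgam and C1qb passed in 1 of 6, Csf1r and Pf4 in 2, Aif1 and Ctss in 3 and Stab1 in 5. Without palatal library 1, which was high for nearly all members, the median log2 fold change of the members was 0.78 and 28 of 31 were above 0. Of all calls, 53.7% were higher in the palatal shelf in edgeR and 69.0% in limma on log2(TPM + 1), where the median of all genes moved to 0.16. There the member median was 0.81, with 16 members called higher and 2 lower.

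**Figure D3:**
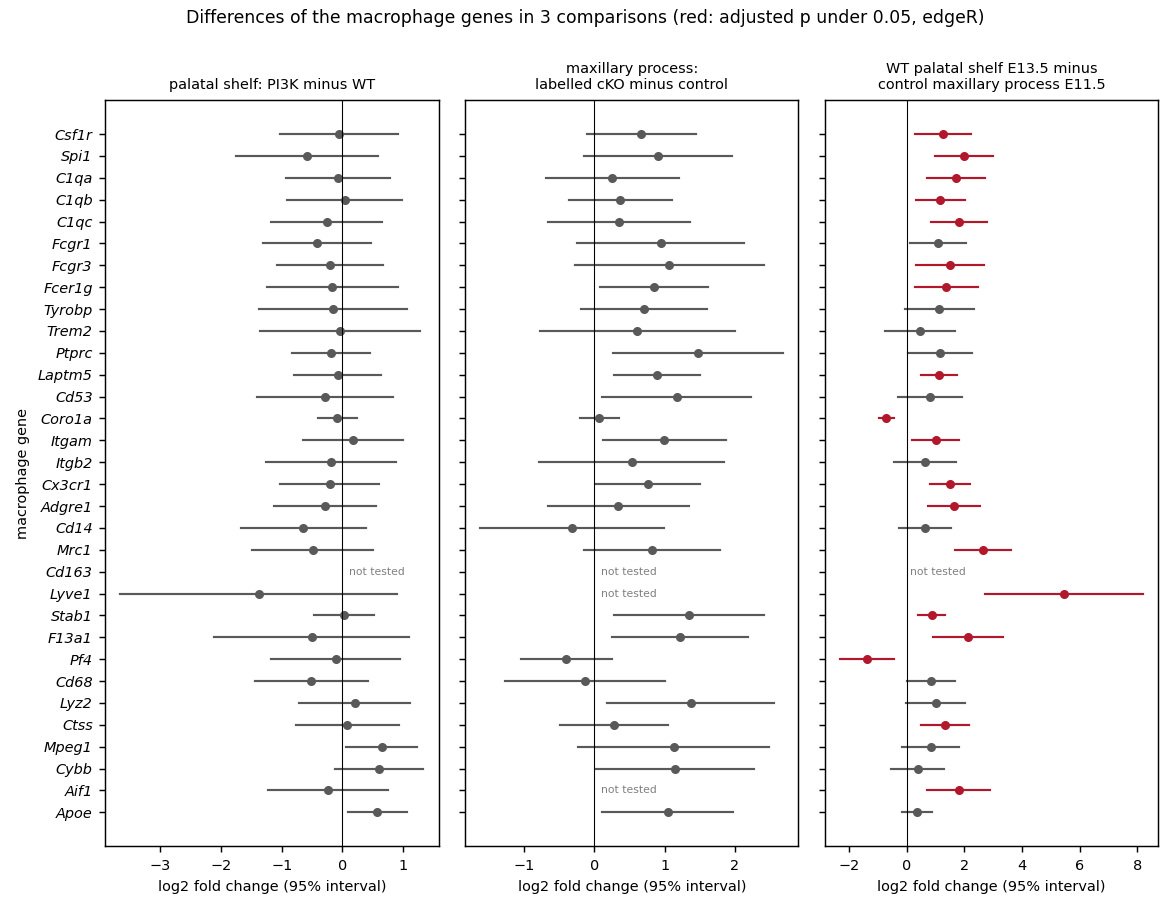
Log2 fold change of each tested macrophage gene with its 95% interval from edgeR, in 3 panels for the 3 comparisons (the horizontal scales differ). Red marks the members with an adjusted p under 0.05, which are 19 in the comparison of the palatal shelf with the maxillary process and 0 in the other 2.

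Within a library, the level of each member was also divided by that of Csf1r, so that a difference common to both genes cancels. Pf4 was chosen for this after its values were seen. The ratio of Pf4 to Csf1r in TPM was 1.01, 0.990 and 1.19 in wild-type palatal shelves and 1.04, 1.01 and 1.00 in PI3K palatal shelves. It was 6.53, 6.95 and 7.93 in controls and 2.66, 4.60 and 3.29 in the libraries labelled cKO. All 6 maxillary libraries thus lay above all 6 palatal ones, and the controls above the libraries labelled cKO. The ratio of C1qc to Csf1r went the other way, at 1.31, 1.30 and 1.86 and 1.13, 1.13 and 1.55 in the palatal groups against 1.11, 0.947 and 0.982 and 0.857, 0.659 and 0.854 in the maxillary groups. Of the other members, none separated all 6 palatal from all 6 maxillary libraries in this ratio. With 3 libraries a group, an exact two-sided permutation test cannot give a p under 0.1.

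Palatal shelves with the PI3K allele were then compared with wild type. No macrophage gene passed: edgeR called 0 of 31 members tested, and 0.0% of all 16525 genes. At an unadjusted p under 0.05 there were 2 members, Apoe and Mpeg1, both higher, against 2.14% of all genes (1.53% higher). DESeq2 and limma called 0 members as well, and DESeq2 called 4 genes in all. The median log2 fold change was -0.165 over the members and -0.00759 over all genes, and 8 of 31 members were above 0, against 48.0% of all genes. This comparison uses the same wild-type libraries as the one before.

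Csf1r measured 23.9, 14.3 and 15.0 CPM in PI3K palatal shelves against 31.2, 11.3 and 12.8 CPM in wild type, a log2 fold change of -0.05 (SE 0.41), and the groups overlapped. Spi1 measured 4.94, 1.89 and 2.46 CPM against 7.71, 2.82 and 3.41 CPM, at -0.58 (SE 0.50). Mrc1 measured 28.4, 14.5 and 14.9 CPM against 39.2, 13.1 and 29.2 CPM, at -0.49 (SE 0.43). These 3 genes shared the pattern of a high library 1 in either genotype. Log2 fold changes were -0.21 (SE 0.35) for Cx3cr1, -0.08 (SE 0.36) for C1qa, -0.29 (SE 0.36) for Adgre1 and -0.51 (SE 0.39) for Cd68. Lyve1 had the lowest value, -1.38 (SE 0.97), from 5.19, 1.12 and 0.691 CPM against 12.3, 1.21 and 4.67 CPM, where again library 1 of each group was highest. All of these had an adjusted p of 0.9997 in edgeR's quasi-likelihood test.

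CPM values did not overlap between the genotypes for 3 members, all higher with the PI3K allele, against 6.23% of all genes (3.12% higher). Apoe measured 46.2, 42.1 and 41.5 CPM with the PI3K allele and 39.4, 25.7 and 22.5 CPM in wild type, a log2 fold change of 0.57 (SE 0.21). Mpeg1 measured 7.08, 5.49 and 6.71 CPM and 5.38, 3.12 and 3.87 CPM, at 0.64 (SE 0.25). Cybb measured 2.93, 1.71 and 1.84 CPM and 1.54, 1.51 and 1.2 CPM, at 0.61 (SE 0.31). In each of the 3, the lowest PI3K library was above the highest wild-type one, and each had an adjusted p of 0.9997 in edgeR. The direction of the member median turned with 1 library: without wild-type library 1 it was 0.24 with 24 of 31 members above 0, without PI3K library 2 it was 0.00, and without wild-type library 2 it was -0.38.

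In the maxillary process, the libraries labelled cKO were compared with controls. Most members had higher values in the libraries labelled cKO, but none passed the adjusted threshold: edgeR called 0 of 29 tested, against 12 genes (0.0842%) of all 14254. Cd163, Lyve1 and Aif1 had too few counts to be tested. At an unadjusted p under 0.05 there were 11 members, all higher, against 12.2% of all genes (6.34% higher): Laptm5, Stab1, F13a1, Ptprc, Lyz2, Apoe, Cx3cr1, Cd53, Cybb, Fcer1g and Itgam. DESeq2 and limma called 0 members, with 11 and 7 at an unadjusted p under 0.05. The log2 fold change was above 0 for 26 of 29 members and for 50.7% of all genes, and its median was 0.82 over the members and 0.004 over all genes. The control libraries are those used in the comparison with the palatal shelf.

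Laptm5 had the smallest p of the members, with 18.9, 12.2 and 10.7 CPM in the libraries labelled cKO and 6.62, 9.19 and 6.71 CPM in controls, a log2 fold change of 0.89 (SE 0.26) and an edgeR adjusted p of 0.292. Ptprc, the gene of CD45, measured 3.70, 3.07 and 2.03 CPM and 1.36, 0.358 and 1.43 CPM, at 1.47 (SE 0.52) with an edgeR adjusted p of 0.357. Neither gene's groups overlapped. Stab1 measured 156, 44.0 and 52.1 CPM and 33.9, 31.2 and 34.5 CPM, at 1.34 (SE 0.46) with an edgeR adjusted p of 0.337, and its first library was about 3 times as high as the other 2 of its group. Lyz2 measured 5.54, 5.80 and 1.64 CPM and 2.27, 1.55 and 1.25 CPM, at 1.37 (SE 0.51) with an edgeR adjusted p of 0.372, and overlapped the controls through library 3. CPM values did not overlap for 8 members, all higher in the libraries labelled cKO, against 18.1% of all genes (8.76% higher): Apoe, Cd53, F13a1, Fcer1g, Itgam, Laptm5, Ptprc and Stab1.

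Log2 fold changes of the central macrophage genes were under 1 in this comparison. Csf1r measured 18.3, 9.85 and 8.57 CPM against 9.08, 8.59 and 5.55 CPM in controls, a log2 fold change of 0.67 (SE 0.33) and an edgeR adjusted p of 0.478, with the third library inside the control range. Cx3cr1 measured 10.7, 6.82 and 4.91 CPM against 4.34, 5.13 and 3.79 CPM, at 0.76 (SE 0.32) with an edgeR adjusted p of 0.401. Log2 fold changes were 0.91 (SE 0.45) for Spi1, 0.82 (SE 0.41) for Mrc1 and 0.25 (SE 0.40) for C1qa, with edgeR adjusted p of 0.474, 0.483 and 0.848. Pf4, Cd14 and Cd68 were the 3 members below 0. Pf4 measured 4.91, 4.55 and 2.88 CPM against 5.84, 5.97 and 4.53 CPM, at -0.40 (SE 0.28), and Cd68 was at -0.13 (SE 0.49), with edgeR adjusted p of 0.613 and 0.943.

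TPM and CPM disagreed on Adgre1. In TPM it was 2.33, 2.64 and 2.40 in the libraries labelled cKO and 0.784, 1.02 and 0.606 in controls, with no overlap. In CPM it was 2.43, 1.18 and 1.13 and 1.56, 1.07 and 1.11, which overlapped, and the log2 fold change of the counts was 0.34 (SE 0.43) with an edgeR adjusted p of 0.798. TPM divides by a transcript length estimated in each library, and CPM does not. The groups of Cx3cr1 were also separate in TPM alone, and those of F13a1 in CPM alone.

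Library 1 of those labelled cKO was high in the macrophage genes and in markers of vessels and blood, and low in markers of neural crest mesenchyme. The latter summed to 516, 1031 and 1024 TPM in the libraries labelled cKO against 1187 to 1337 TPM in controls, with a log2 fold change above 0 for 3 of 12, a median log2 fold change of -0.44 and none past the adjusted threshold in edgeR. The 31 members other than Apoe summed to 205, 135 and 116 TPM in the libraries labelled cKO and to 111, 115 and 105 TPM in controls. Of all genes in this comparison, 50.7% had a log2 fold change above 0 and 12.2% an unadjusted p under 0.05 (6.34% higher). All 10 endothelial markers had a log2 fold change above 0 and an unadjusted p under 0.05. None of these markers passed the adjusted threshold in edgeR, and their median was 0.79. Their sum was 644, 389 and 346 TPM in the libraries labelled cKO against 268 to 285 TPM in controls, with no marker at 0. Lymphatic markers (5 listed) summed to 19.7 to 46.3 TPM against 12.3 to 14.5 TPM, and erythroid markers (10 listed) to 14590.0 to 40470.0 TPM against 13790.0 to 24000.0 TPM, each highest in library 1. Without that library the member median was 0.43 and 24 of 29 members were above 0. In that fit 4 members had an unadjusted p under 0.05, 3 of them higher, against 1770 of all 14519 genes. The part of vessel, blood and mesenchyme content in the macrophage values was not tested.

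**Figure D4:**
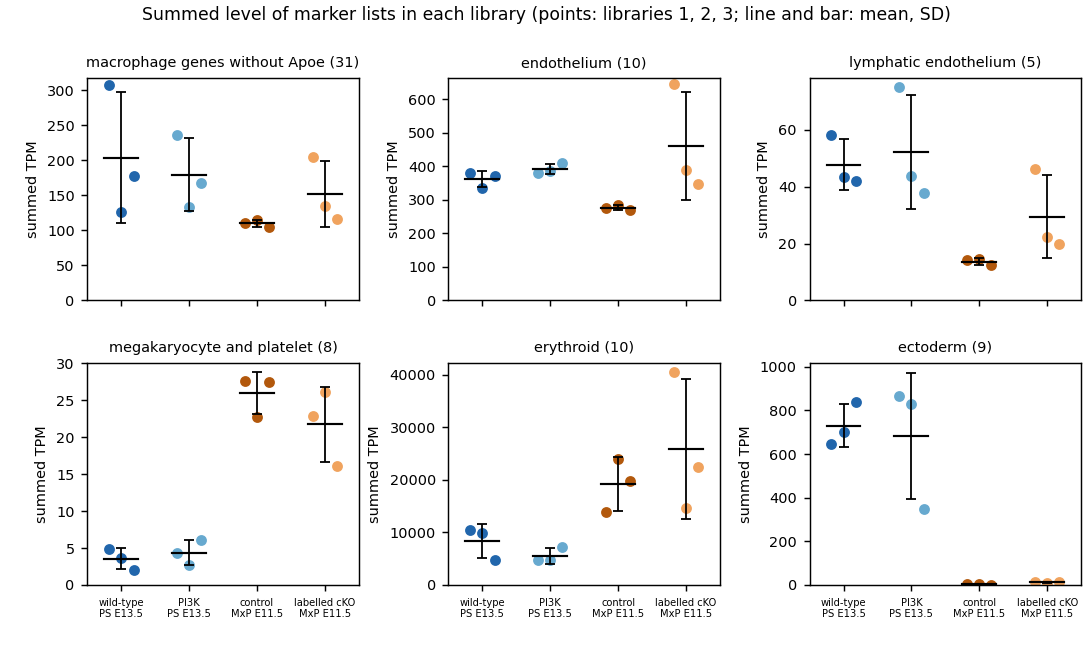
Summed TPM of the 31 macrophage genes without Apoe and of marker lists of other cells, with 1 dot per library in each of the 4 groups. Library 1 labelled cKO is highest of its group for macrophage, endothelial, lymphatic and erythroid sums, and the ectodermal sum is over 300 TPM in every palatal library and at most 15.0 TPM in the maxillary ones.

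Genes that act on or with macrophages were taken from 6 lists. None of their members passed in either comparison of a mutant with its control in edgeR. At an unadjusted p under 0.05 there were 2 list genes in the PI3K comparison, against 2.14% of all genes. They were 1 of 11 tested engulfment genes and 1 of 12 tested myeloid transcription factors. In the cKO comparison there were 11, where 12.2% of all genes had such a p. They were 5 of 11 tested engulfment genes and 4 of 7 tested microglia-enriched genes. The rest were 1 of 11 tested myeloid transcription factors and 1 of 2 tested monocyte and antigen presentation genes. The last, Plac8, passed the filter on low counts through the libraries labelled cKO alone. Taken in the order below, the 6 lists held 3, 11, 12, 8, 6 and 10 tested genes in the PI3K comparison. They held 3, 11, 11, 4, 2 and 7 in the cKO comparison. Between the palatal shelf and the maxillary process many passed, most of them higher in the palatal shelf, where 50.6% of all genes passed. Values in the next sentences are log2 fold changes of the palatal shelf over the control maxillary process, and those named have an adjusted p under 0.05.

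Of 12 listed ligands and chemokines that support or attract macrophages, 3 were expressed enough to be tested and all 3 were higher: the growth factor gene Csf1 at 2.17 (SE 0.37), the fractalkine gene Cx3cl1 at 2.22 (SE 0.25) and Cxcl12 at 1.01 (SE 0.17). Csf1 measured 19.1, 6.70 and 10.8 TPM in the wild-type palatal shelf and 1.90, 1.97 and 2.97 TPM in controls, so both the ligand and its receptor Csf1r stood higher in the palatal shelf. Of 11 tested genes for the engulfment of dying cells, 5 were higher and 1 lower. Gas6, a bridge between dying cells and their receptors, was at 2.35 (SE 0.32) and the receptor gene Axl at 1.39 (SE 0.10), whereas the related receptor gene Mertk was at -0.71 (SE 0.20). Genes of this list are also expressed outside macrophages. Axl measured 77.0 to 89.3 TPM in the wild-type palatal shelf, and which cells carried it was not tested.

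Of 11 tested myeloid transcription factors, 5 were higher and 3 lower. Maf was at 3.39 (SE 0.40), Cebpb at 3.07 (SE 0.41), Cebpa at 2.82 (SE 0.31) and Id3 at -1.19 (SE 0.12). Of 7 tested complement genes other than C1q, 6 were higher and 0 lower, including the C1 protease genes C1ra at 5.27 (SE 0.61) and C1s1 at 2.45 (SE 0.27) and the receptor gene C5ar1 at 3.21 (SE 0.73). All 3 C1q chains and both listed genes of the proteases that join them were thus higher in the palatal shelf. C1ra and C5ar1 passed the filter on low counts through the palatal libraries alone. Of 6 tested monocyte and antigen presentation genes, 4 were higher and 0 lower. The class II genes among them were low and did not move alike. H2-Aa measured 1.91, 1.66 and 1.62 TPM in the palatal shelf and was listed at 0 in all 3 controls, and H2-Eb1 measured 2.96, 1.91 and 2.35 TPM against 0, 0.568 and 0.0787 TPM, but both passed the filter through the palatal libraries alone. H2-Ab1 measured 3.10, 2.79 and 2.29 TPM against 3.36, 1.38 and 2.45 TPM, with overlapping groups, a log2 fold change of 0.06 (SE 0.38) and an edgeR adjusted p of 0.901. Cd74, the class II invariant chain, measured 7.78, 6.33 and 9.27 TPM against 0.491, 1.18 and 0.836 TPM. Of 8 tested genes enriched in microglia, the macrophages of the brain, 3 were higher and 0 lower, with Fcrls at 2.45 (SE 0.48). The other 2, Sparc and Olfml3, are also mesenchymal genes, and Sparc was the most abundant of the list at 375 to 814 TPM in the palatal shelf.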

How the data were processed

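RNA was selected for polyA tails and sequenced on an Illumina NovaSeq, per the labels' protocols. The submitters' processing notes name STAR 2.7.0, Salmon 1.1.0, DESeq2 1.28.1 and mm10. The authors deposited gene tables of estimated counts and of TPM made with Salmon, which splits reads among transcripts by likelihood, so genes with shared sequence can exchange reads. Identifiers were matched without their version to GENCODE M21 (53355 of 53392). Estimated counts were rounded, scaled by TMM and filtered with filterByExpr, and each pair of groups was fitted on its own 6 libraries with edgeR 4.0.16 (R 4.3.3) by glmQLFit and glmQLFTest, with Benjamini-Hochberg adjustment over all genes tested and a threshold of 0.05. Printed CPM values used TMM over all 12 libraries. Counts of genes whose groups did not overlap in CPM used TMM over the 6 libraries of each comparison. DESeq2 1.42.0, limma 3.58.1 on log2(TPM + 1) and log2(TPM + 0.1), other scalings and filters, a replicate block and fits without each library were alternatives. The fits were tested on simulated data with 200 changed genes per comparison. In edgeR, false calls were 14.5% of calls in the PI3K comparison, 7.02% in the cKO comparison and 7.14% between the tissues. In the same order, 59%, 71% and 61% of 2-fold changes and 89%, 88% and 95% of 4-fold changes were recovered. Intervals on fold changes are at the 95% level.

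The macrophage genes and the other gene lists were chosen with earlier results of these data known. All 32 genes are named with their levels. Fold changes are given for Csf1r, Spi1, Cx3cr1, C1qa, Adgre1 and Mrc1, for members past the threshold and for up to 3 members with the largest rise and fall at a mean of at least 1 CPM; other members and list genes were named after their values were seen. No 2 libraries of a group agreed within sampling noise (chi-square per degree of freedom at least 11.0). Sequences are from RefSeq promoter tables. Antisense overlaps (Csf1r with Hmgxb3, Coro1a with Bola2, Stab1 with Nt5dc2) are open where strand was not used in counting, which is not given in the sources used here.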

Additional observations from a re-analysis of the deposited data

How the results depend on the processing

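Between the palatal shelf and the control maxillary process, called members numbered 10 to 20 when 1 library was left out, and 17 with the replicate block; the member median stayed above 0 in every alternative run. Between the libraries labelled cKO and controls, 12 genes passed in edgeR, 143 with no filter on low counts, 40 with the replicate block, 376 in DESeq2, 36 at an adjusted p under 0.1 and 2 to 29 when 1 library was left out; no member passed in any of these. In the PI3K comparison DESeq2 called 4 genes and edgeR 0, and no member passed. The log2 fold change of Csf1r in the PI3K comparison turned to 0.063 with the replicate block, 0.035 in limma on log2(TPM + 1) and 0.049 on log2(TPM + 0.1). When 1 library was left out of that comparison, it ran from -0.317 to 0.581 for Csf1r, -0.497 to 0.174 for Adgre1, -0.296 to 0.370 for C1qa, -0.497 to 0.185 for Cx3cr1 and -1.079 to 0.010 for Spi1. In the cKO comparison it ran from -0.109 to 0.535 for Adgre1, -0.004 to 0.649 for C1qa and -0.866 to 0.173 for Cd68. The cause was not tested. Leaving out 6 of the members that other cells also make (Apoe, Coro1a, Lyve1, Stab1, Ctss and Pf4, with F13a1 kept) gave medians of 1.14, 0.83 and -0.19 in the palatal-against-maxillary, cKO and PI3K comparisons.

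The replicate numbers were not taken as pairs: deviations of same-numbered libraries correlated at 0.53, 0.22 and -0.22 in the palatal comparison, 0.08, 0.11 and 0.23 in the maxillary one and -0.14, 0.03 and -0.02 between tissues, and 3, 4 and 1 of 6 libraries correlated best with their own number. With the replicate block the member medians were -0.085, 0.716 and 1.055. Depth limits the low members: 4 or 5 members had under 10 counts in each control library, against 1 in each palatal library.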
